A study of Rattus norvegicus with 5 samples.

Results

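The genes of cholesterol synthesis and of fatty acid synthesis, desaturation and elongation were examined in the small intestine of rats under mild calorie restriction (CR). The set holds 31 genes, 30 of them among the 10411 named on the array, taken by symbol. The rule uses no measured value, but the set was drawn up with earlier results of these data known. These are 16 enzymes of cholesterol synthesis, 10 enzymes that make, desaturate or elongate fatty acids, and 5 genes for regulators, acyl-CoA synthetases and an acyltransferase. All probe sets annotated with 1 of these symbols were taken, which gave 43 of the 15866 probe sets on the array. The animals were male Wistar rats, 6 weeks old when the diets began, which were given either the daily intake recorded in freely fed rats (control) or 5, 10, 20 or 30% less of a powdered diet for 1 month, and were sampled after a 16 h fast. RNA from the small intestine of 5 rats per group was pooled, and each of the 5 pools was hybridized to 1 Affymetrix array, so no level has a replicate and the spread between rats is not seen. The values are MAS5 signals on a linear scale, and all describe the fasted gut.

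Cholesterol is made from acetyl-CoA by way of mevalonate, isoprenoids and squalene, and squalene is then turned into sterols by a chain of oxidations, reductions and demethylations. Fatty acids are made from citrate-derived acetyl-CoA by ATP citrate lyase, acetyl-CoA carboxylase and fatty acid synthase, and are then elongated and desaturated. The transcription factors of the SREBP family drive both branches, SREBP-2 mainly the cholesterol genes and SREBP-1c mainly the fatty acid genes, and INSIG proteins hold their precursors in the endoplasmic reticulum when sterols are plentiful. The small intestine is a major site of cholesterol synthesis, and its enterocytes also re-esterify absorbed fatty acids.

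Fatty acid genes lay, in the median, below the control at every level, with median log2 ratios of −0.19, −0.30, −0.24 and −0.22 at 5, 10, 20 and 30% CR. Cholesterol genes went in both directions, with medians of −0.0036, −0.20, 0.074 and −0.092, and were lowest as a group on the 10% CR array. Over all 6202 genes with a usable signal and 1 name the medians were 0.0087, 0.0057, −0.030 and −0.0025. The differences between the cholesterol and the fatty acid medians were 0.18, 0.095, 0.31 and 0.13 (log2), above 0 at all 4 levels, which share 1 control array. No test was made of these medians.

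Of the 31 genes, 28 had a probe set whose log2 signal averaged 5.54 or more over the arrays. This limit is the median of all probe sets and equals a signal of 46.5. They comprised 14 cholesterol genes, 10 fatty acid genes and 4 of the third group. *Mvd* and *Gpam* had probe sets below this limit only, and for *Hmgcs1* no probe set carries the symbol in the annotation used here. Each gene was read at its brightest probe set. Correlations between arrays lay between 0.971 and 0.988 (Pearson's r of log2 signals across probe sets, which are not independent replicates). For beta-actin the 3' signal exceeded the 5' signal 3.18 times at 20% CR and 2.2 to 2.41 times on the other arrays. For GAPDH the same ratio was 1.27 at 20% CR and 1.21 to 1.4 on the other arrays, so these 2 measures of RNA integrity did not set the same array apart.

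**Figure D1:**
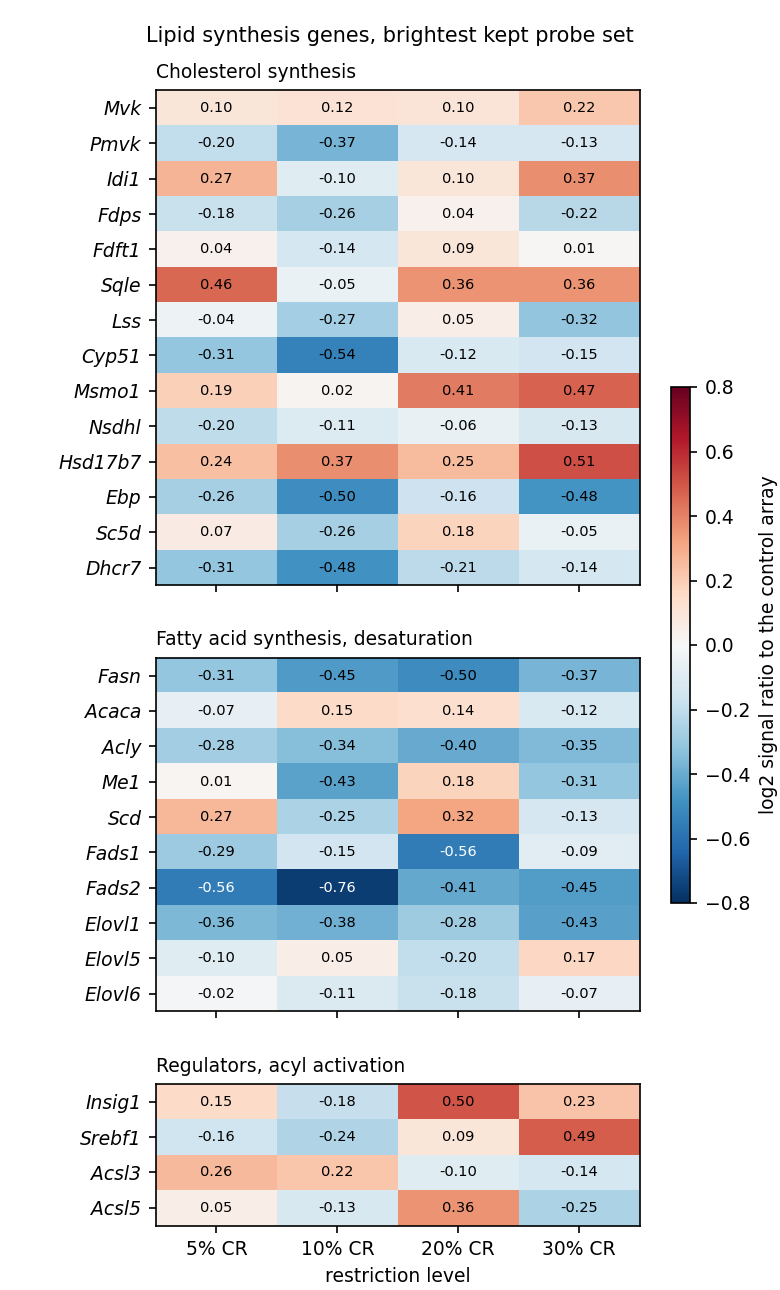
Log2 signal ratio to the control array (colour and printed value) at the 4 CR levels (columns) for the 28 measured genes (rows) in 3 groups; each column is 1 array of a pool of 5 rats, without replicates. *Fasn*, *Acly*, *Elovl1* and *Fads2* are blue in every column, and most cholesterol genes have their lowest value in the 10% column.

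None of the 28 genes passed a test. When the mean of all CR pools was set against the control in limma, 0 of the 28 had an adjusted p below 0.05 in either direction. Over all 7933 probe sets the shares called were 0% higher and 0% lower. At an unadjusted p below 0.05, 3 of the 28 were lower (*Fasn*, *Acly* and *Elovl1*) and 0 higher, where 2.05% of all probe sets were lower and 2.71% higher. In the linear trend over the restriction percent, 0 of the 28 had an adjusted p below 0.05, with 0% of all probe sets called for a positive and 0% for a negative slope. At an unadjusted p below 0.05, 2 of the 28 had a positive slope (*Msmo1* and *Srebf1*) and 0 a negative slope, where 1.55% and 1.54% of all probe sets did so. The adjusted p of the 28 genes lay between 0.988 and 0.998 in the comparison with the control and was 0.998 for each in the trend. Both fits have 3 residual degrees of freedom. In the first, the spread of the CR pools stands in for that of the lone control, and in the trend the distance of all 5 pools from the line is the error.

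By size, few of the genes were far from the control. With 0.5 on the log2 scale as the limit, 0 of the 28 genes were above it and 1 below its negative at 5% CR, beside 5.39% and 3.39% of all genes. At 10% CR 0 were higher and 2 lower (4.56% and 3.18% of all genes), at 20% CR 1 was higher and 2 lower (3.77% and 5.56%), and at 30% CR 1 was higher and 0 lower (7.13% and 5.32%). These genes were *Fads2* at 5% CR, *Cyp51* and *Fads2* at 10%, *Insig1* (higher), *Fasn* and *Fads1* at 20%, and *Hsd17b7* (higher) at 30%. *Hsd17b7* passed the signal limit only through its higher CR signals. None of the 28 reached 0.5 in 1 direction at all 4 levels. By sign alone, 11 of the 28 were below the control at all 4 levels and 3 above it, beside 20.7% and 19% of all genes. Since the 4 ratios share the control array, a single low or high control signal gives the same sign 4 times.

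Among the fatty acid genes, 6 of 10 were below the control at all 4 levels, beside 20.7% of all genes. They were *Fasn*, *Acly*, *Elovl1*, *Elovl6*, *Fads1* and *Fads2*, named after their values were seen. *Fasn*, the synthase that builds palmitate, had a signal of 244.9 on the control array, followed by 197.5, 179.2, 172.8 and 189.5 in the order of rising restriction, which is kept for all genes here. All CR signals lay below the control, at 0.706 to 0.806 of it. The mean log2 ratio was −0.41 ± 0.16 (limma standard error, 4 CR pools against 1 control pool, adjusted p = 0.988). The other *Fasn* probe set, weaker, had signals of 75.3, 70.0, 76.4, 81.3 and 63.2, so at 10 and 20% CR it lay above its control signal.

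*Acly*, which splits cytosolic citrate into acetyl-CoA for both pathways, had 342.0 on the control array and 282.0, 270.1, 259.0 and 267.9 on the CR arrays. Its 4 ratios were close to each other, from 0.757 to 0.825 of the control, with a mean log2 ratio of −0.34 ± 0.15 (adjusted p = 0.988). *Elovl1*, an elongase of very long saturated and monounsaturated fatty acids, had 335.4 on the control array and 261.7, 257.3, 275.9 and 248.6 on the CR arrays. These too formed a narrow range of 0.741 to 0.823 of the control, and the mean log2 ratio was −0.36 ± 0.15 (adjusted p = 0.988). For both genes the SD over the 4 levels, 0.050 and 0.063, was below the standard error of the ratio. That error also counts the lone control, and limma draws it towards the spread of probe sets of like signal.

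*Fads2* and *Fads1*, the delta-6 and delta-5 desaturases of polyunsaturated fatty acid synthesis, were weak. *Fads2* had a signal of 69.5 on the control array and 47.2, 41.0, 52.3 and 51.0 on the CR arrays. It was the lowest of the 28 genes in the mean, at −0.54 ± 0.25 (adjusted p = 0.988), but at 10% CR its signal was below the limit of 46.5, as was that of *Fads1* at 20% CR. *Fads1* had 66.8 on the control array and 54.6, 60.2, 45.3 and 62.7 on the CR arrays, with a mean log2 ratio of −0.27 ± 0.26 (adjusted p = 0.988), or −0.18 without the 20% CR pool. Its log2 ratio at 30% CR was −0.091, against −0.56 at 20%, so the levels did not form an order.

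**Figure D2:**
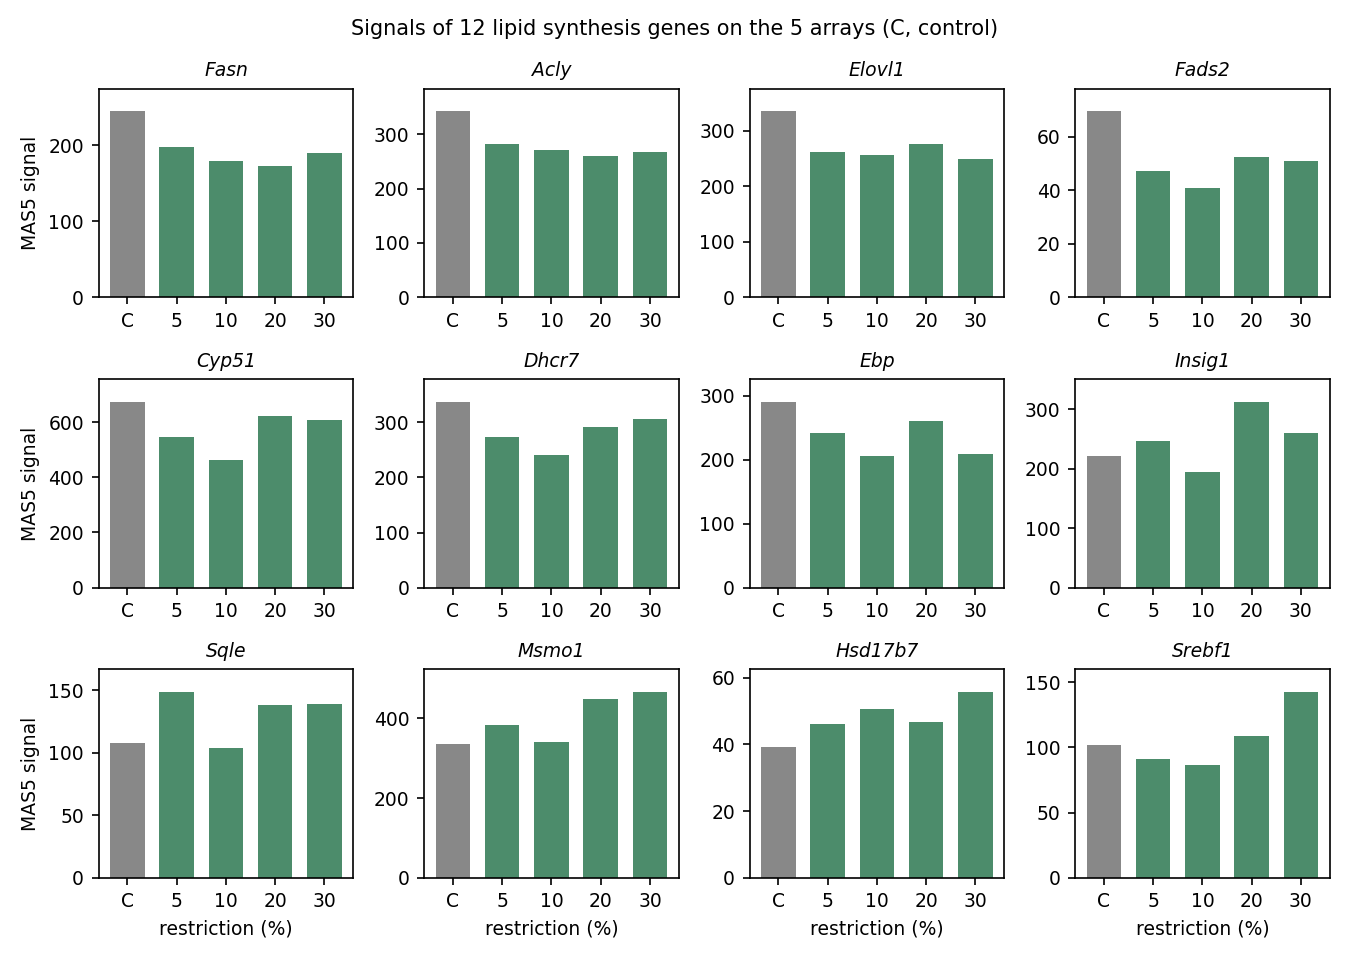
MAS5 signal (linear scale, each bar starts at 0) of 12 genes on the control array (C, grey) and the 5, 10, 20 and 30% CR arrays (green); 1 bar is 1 array of a pool of 5 rats, so there are no error bars. *Fasn*, *Acly*, *Elovl1* and *Fads2* have their highest bar at C, while *Msmo1* and *Hsd17b7* have their highest at 30%.

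The other fatty acid genes were near the control or moved between levels. *Elovl6*, which elongates palmitate to stearate, had a mean log2 ratio of −0.093, and *Elovl5*, which elongates polyunsaturated fatty acids, −0.018. *Acaca*, the carboxylase that makes malonyl-CoA, had 121.2 on the control array and 115.7, 134.6, 133.1 and 111.5 on the CR arrays. Its mean log2 ratio was 0.025 ± 0.20, on both sides of the control, unlike *Acly* and *Fasn*, the steps before and after it. *Scd*, the stearoyl-CoA desaturase, was at the edge of the limit, with 48.9 on the control array and 58.8, 41.1, 60.9 and 44.6 on the CR arrays. *Me1*, the malic enzyme that supplies NADPH, had 464.6 on the control array and 469.1, 345.5, 525.2 and 374.5 on the CR arrays. *Scd* and *Me1* both alternated, above the control at 5 and 20% CR and below it at 10 and 30%, and the second *Me1* probe set did the same, with 327.4, 343.0, 247.4, 416.6 and 247.0.

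Signals of cell type markers also differed between the control and the CR arrays. In pooled tissue, fewer cells of a type and less RNA per cell cannot be told apart. The summed signal of 6 exocrine pancreas markers was 629.9 on the control array and 256.5 to 326.2 on the CR arrays. The 1 marker above the signal limit, *Cela1*, an elastase, had 214.5 on the control array and 149.5, 245.8, 207.0 and 184.5 on the CR arrays, on both sides of the control. The other 5, below the limit, were highest on the control array, as *Prss1*, a pancreatic trypsinogen, with 174.3 and 71.2, 2.4, 24.9 and 18.5. The sum of the 5 enterocyte markers with a probe set, of 8 listed, was 8636 on the control array and 10690 to 14970 on the CR arrays. Among them *Apoa1* had 2696.8 on the control array and 2507.2, 2476.2, 4207.8 and 2375.9 on the CR arrays, above the control at 20% CR only. The others were above the control on every CR array. For 5 of 8 adipose markers the sum was 263.8 and 237.4 to 335.8. Of these, 2 passed the limit and were highest at 10% CR, *Fabp4*, a fatty acid carrier, with 121.0 and 99.9 to 156.7 and *Cfd*, which encodes adipsin, with 82.5 and 105.9 to 140.3. The others did not pass it. *Lpl*, which encodes lipoprotein lipase, had 47.7 on the control array and 37.9, 31.2, 16.3 and 39.6 on the CR arrays. *Plin1*, which coats fat droplets, had 11.3 and 8.3, 5.2, 1.8 and 10, so both were highest on the control array. *Lep*, which encodes leptin, was at 2.4 or less. Liver markers summed to 84.1 and 73.9 to 132.9, with 0 of 5 above the limit. The part of these differences in the fatty acid gene ratios was not tested.

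**Figure D3:**
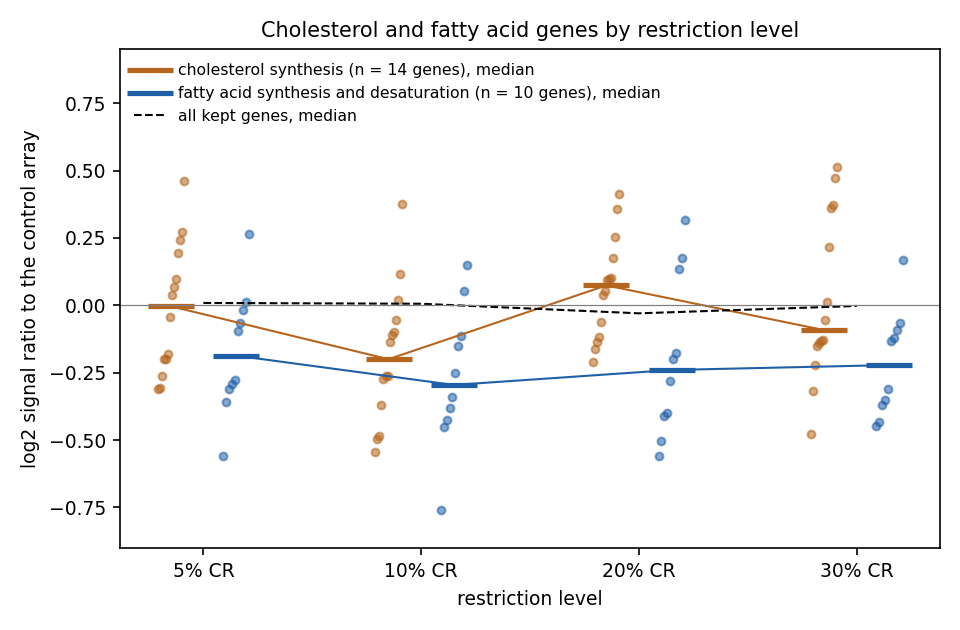
Log2 signal ratio to the control array (y axis) at each CR level (x axis) for the 14 cholesterol genes (brown points) and 10 fatty acid genes (blue points), with the group medians as horizontal bars joined by lines and the median of all 6202 genes as a dashed line. The blue median lies between −0.19 and −0.30 at all levels, and the brown one between −0.20 and 0.074.

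The cholesterol genes did not move as 1 block against the control. Of 14, 5 were below the control at all 4 levels (*Pmvk*, *Cyp51*, *Nsdhl*, *Ebp* and *Dhcr7*) and 3 above it (*Mvk*, *Msmo1* and *Hsd17b7*), and the other 6 took both signs. Over all genes 20.7% were below and 19% above the control at all 4 levels. The genes of the steps from mevalonate to squalene (5 measured) had medians of 0.036, −0.14, 0.095 and 0.012 at 5, 10, 20 and 30% CR, and those from squalene to cholesterol (9 measured) had −0.044, −0.26, 0.053 and −0.13.

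Among the steps up to squalene, *Mvk*, the mevalonate kinase, had 97.6 on the control array and 104.4, 105.7, 104.8 and 113.4 on the CR arrays. *Pmvk*, the next kinase, had 131.3 and 114.4, 101.5, 119.4 and 119.7. At these probe sets the 2 kinases lay on opposite sides of the control at every level, by ratios of 1.07 to 1.16 and 0.773 to 0.912. The weaker *Mvk* probe set had 65.8 and 50.4, 66.0, 74.4 and 53.0, so at 5 and 30% CR it lay below the control, as *Pmvk* did. *Idi1*, the isopentenyl diphosphate isomerase, had 332.4 on the control array and 400.9, 310.7, 356.0 and 429.9 on the CR arrays. *Fdps*, which makes farnesyl diphosphate, had 909.0 and 802.5, 757.1, 932.5 and 778.8. *Fdft1*, the squalene synthase, stayed between 0.909 and 1.07 of its control signal of 210.9.

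After squalene, the steps were mixed. *Sqle*, the squalene epoxidase and a rate-limiting enzyme of the pathway, had 108.0 on the control array and 148.7, 104.1, 138.4 and 138.6 on the CR arrays. It was above the control by a ratio of 1.28 to 1.38 at 5, 20 and 30% CR and slightly below it at 10%, with a mean log2 ratio of 0.28 ± 0.22 (adjusted p = 0.988). *Lss*, which closes the ring to lanosterol, had 80.5 and 78.1, 66.6, 83.5 and 64.6. *Cyp51*, the lanosterol 14-alpha-demethylase, had 675.1 on the control array and 545.3, 463.4, 621.7 and 607.4 on the CR arrays. Its signal was lowest at 10% CR, at 0.686 of the control, and nearer the control at 20 and 30% CR, with a mean log2 ratio of −0.28 ± 0.18 (adjusted p = 0.988). The second *Cyp51* probe set had 190.9, 157.8, 136.6, 217.4 and 153.7, also lowest at 10% CR but above the control at 20%.

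*Msmo1* and *Nsdhl*, which remove the methyl groups at carbon 4 of the sterol, differed in sign. *Msmo1*, the sterol-C4-methyl monooxygenase, had 336.3 on the control array and 384.3, 340.9, 447.7 and 466.4 on the CR arrays. The 2 stronger levels were the 2 highest, and the slope was 0.16 ± 0.058 (log2 per 10% restriction, adjusted p = 0.998). *Nsdhl* had 78.7 and 68.5, 73.0, 75.4 and 71.9, all just below the control. *Hsd17b7*, the ketosteroid reductase of the same complex, had 39.1 on the control array, under the signal limit, and 46.2, 50.7, 46.6 and 55.8 on the CR arrays. Its mean log2 ratio was 0.35 ± 0.25 (adjusted p = 0.988), the highest of the 28 genes. *Hsd17b7* passed the signal limit only through its higher CR signals, so its place among the genes above the control is no support for a direction.

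Among the last steps, *Ebp*, the sterol delta-8 delta-7 isomerase, had 290.6 on the control array and 242.2, 206.0, 259.6 and 208.6 on the CR arrays, with a mean log2 ratio of −0.35 ± 0.18 (adjusted p = 0.988). *Dhcr7*, the 7-dehydrocholesterol reductase that completes cholesterol, had 337.7 and 272.6, 241.3, 292.2 and 306.6, with −0.29 ± 0.17 (adjusted p = 0.988). Both were below the control on every CR array, *Dhcr7* least so at 30% CR and *Ebp* least so at 20%. *Sc5d*, the sterol C5 desaturase that acts between them, had 283.0 and 296.5, 235.9, 320.0 and 272.6, on both sides of the control.

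Across these steps, the lowest signals gathered on the 10% CR array. Of the 14 cholesterol genes, 9 had their lowest signal of all 5 arrays at 10% CR, or 64.3%, beside 16.7% of all genes. They were *Pmvk*, *Idi1*, *Fdps*, *Fdft1*, *Sqle*, *Cyp51*, *Ebp*, *Sc5d* and *Dhcr7*. None of the 14 had its highest signal there, beside 21% of all genes. Of the fatty acid genes 3 of 10 were lowest at 10% CR, and 5 of 10 at 20% CR, where 28.5% of all genes were lowest. Between the 10 and the 20% CR arrays, 12 of the 14 cholesterol genes were higher at 20%, with a median difference of 0.29 (log2), where 44.6% of all genes were higher at a median of −0.039. By definition the 9 genes lowest at 10% CR are among these 12, so this count is largely fixed by the first. Of the fatty acid genes 4 of 10 were higher at 20% than at 10% CR, with a median difference of −0.034. This pattern was noticed in the data, and with 1 array per level it has no replicate check.

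**Figure D4:**
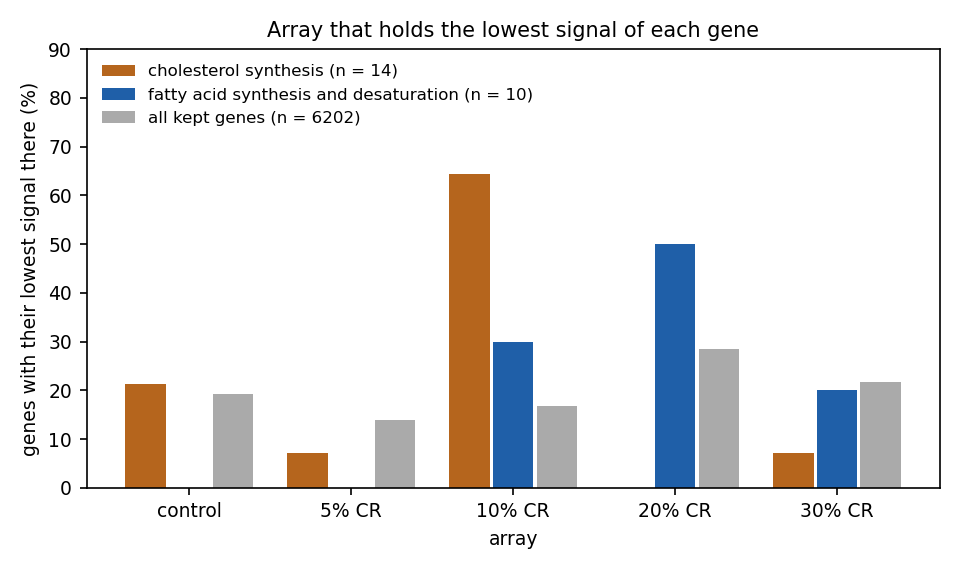
Percent of genes (y axis, from 0) whose lowest signal among the 5 arrays falls on each array (x axis), for 14 cholesterol genes (brown), 10 fatty acid genes (blue) and all 6202 genes (grey). At 10% CR the brown bar is at 64.3% and the grey bar at 16.7%. No fatty acid gene is lowest on the control array, where the grey bar is at 19.2%.

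The marker sums also differed between these 2 arrays. Enterocyte markers summed to 10820 at 10% CR and 14970 at 20%, the highest of the 5 arrays. The 5 smooth muscle markers summed to 7359 at 10% CR, the highest, and 5611 at 20%, while the other arrays lay between 5173 and 6653. Markers of proliferating crypt cells, where 6 of 7 had a probe set, summed to 2186 and 2129. Lymphocyte markers (5, of which 2 above the limit) summed to 256.1 and 153.1, ileal markers (3 of 5 with a probe set, 0 above the limit) to 47.2 and 23.4, and proximal small intestine markers (5 of 6) to 6590 and 7681. That last difference was carried by *Fabp1*, a fatty acid carrier also among the enterocyte markers, with 5369.0 and 6468.2, while the median log2 ratio of the proximal markers to the control was −0.074 at 10% and −0.091 at 20% CR. The part of these differences, and of the higher actin ratio at 20% CR, in the cholesterol gene pattern was not tested.

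The genes for regulators and fatty acid activation shared parts of the pattern. *Insig1*, itself a target of SREBP and a brake on it, had 221.0 on the control array and 245.6, 194.6, 312.7 and 259.3 on the CR arrays. It was lowest at 10% CR and highest at 20%, where its ratio of 1.41 was the highest of the 28 genes at that level, and its mean log2 ratio was 0.18 ± 0.23 (adjusted p = 0.988). *Srebf1*, which encodes SREBP-1, had 101.8 on the control array and 91.1, 86.3, 108.7 and 142.7 on the CR arrays. The 30% CR signal was 1.40 times the control and the slope 0.19 ± 0.084 (log2 per 10% restriction, adjusted p = 0.998). Without the 30% CR pool the slope was 0.063. *Acsl5*, the main acyl-CoA synthetase of enterocytes, had 1307 on the control array and 1356.1, 1194.6, 1676.2 and 1095.5 on the CR arrays, highest at 20%. *Acsl3*, a synthetase of lipid droplets, had 69.2 and 82.7, 80.8, 64.7 and 62.9, higher at 5 and 10% CR and lower at 20 and 30%.

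Several genes could be read at more than 1 probe set above the signal limit, and for 3 of these 7 the mean ratios took opposite signs. *Mvk* had 0.13 at the brighter and −0.13 at the weaker probe set, *Idi1* 0.16 and −0.18, and *Sc5d* −0.018 and 0.055. Differences of this size between CR and control are thus within the disagreement of 2 probe sets of 1 gene. *Fasn* kept its sign but not its size, with −0.41 at the brighter and −0.057 at the weaker probe set. The place of the 10% CR array was less affected. The weaker *Idi1* probe set had 197.1, 176.0, 154.8, 163.2 and 208.5, that of *Sc5d* 85.7, 84.9, 76.3, 89.5 and 108.4, and that of *Fdft1* 84.2, 92.9, 80.9, 99.0 and 107.6, each with its lowest signal at 10% CR, unlike that of *Mvk*, which was lowest at 5%.

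Most promoters of the cholesterol genes, and of the third group, hold a short motif. CCAAT, in either orientation (CCAAT or ATTGG), is the core recognized by the factor NF-Y, which is known to act beside SREBP. In the 250 bases before the start site, in RefSeq sequences of the GRCr8 build, CCAAT was found in 11 of 13 promoters of cholesterol genes (84.6%). It was also found in 5 of 6 promoters of the third group (83.3%), where *Srebf1* has 2. Among fatty acid genes it was found in 3 of 7 (42.9%). The share was 36.3% for the promoters of all genes with a usable signal and 34% for all 33469 promoters in the table. Stretches of 60 bases are given for 3 cholesterol genes and *Insig1*, all lowest at 10% CR, and for *Fads1*, which was lowest at 20% CR, with the motif in capitals. Each is written 5' to 3' on the strand of its gene and lies before the gene's annotated start.
Idi1: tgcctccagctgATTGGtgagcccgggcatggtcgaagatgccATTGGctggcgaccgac
Fdps: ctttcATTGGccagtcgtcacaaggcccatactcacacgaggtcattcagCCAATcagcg
Sc5d: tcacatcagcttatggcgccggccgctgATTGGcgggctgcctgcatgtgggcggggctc
Insig1: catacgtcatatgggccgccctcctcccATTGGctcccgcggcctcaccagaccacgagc
Fads1: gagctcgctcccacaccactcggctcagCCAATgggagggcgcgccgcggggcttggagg

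These lie at chr17:66547543-66547602 (*Idi1*, minus strand), chr2:176804892-176804951 (*Fdps*, minus), chr8:51538333-51538392 (*Sc5d*, minus), chr4:8057931-8057990 (*Insig1*, minus) and chr1:216252543-216252602 (*Fads1*, plus). *Idi1* and *Fdps* each hold the motif 2 times within the stretch and the other genes once. Of the cholesterol genes lowest at 10% CR, *Idi1*, *Fdps*, *Ebp* and *Sc5d* hold CCAAT in the 250 bases searched, and *Cyp51* and *Dhcr7* do not. *Pmvk*, *Fdft1* and *Sqle*, also lowest at 10% CR, had no promoter sequence to search. CCAAT is also held by *Mvk*, *Lss*, *Msmo1*, *Nsdhl* and *Hsd17b7*, all the measured cholesterol genes with their lowest signal on another array. A link between the motif and the 10% CR array was not tested. TCACNCCAC, a common form of the sterol response element, was found in 0 of 26 promoters of the set (25 genes, *Srebf1* having 2) and in 0.974% of all promoters. CACGTG, the E-box, was found in 3 of 26 (*Sc5d*, *Elovl5* and *Insig1*), or 11.5%. The share was 8.36% for the promoters of all genes with a usable signal and 5.59% for all promoters. Both strands were searched, and none of the 3 motifs contains another. A match is a description of the letters and not a measured site.

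Other genes of the pathways were read from a list of 56, of which 38 had a probe set and 33 a usable signal. Of the 33, 16 had a positive and 17 a negative mean log2 ratio, 0 had an adjusted p below 0.05 in limma. At an unadjusted p below 0.05, 3 were higher and 1 lower, where 2.71% and 2.05% of all probe sets were. The 5 with a mean of at least 0.5 in size were the sterol exporters *Abcg1* and *Abcg5*, *Mylip*, *Aacs* and *Mlxipl*. *Mylip*, a ubiquitin ligase that degrades lipoprotein receptors and, like both exporters, is a target of the sterol receptor LXR, had 34.7 on the control array and 65.7, 70.5, 54.7 and 71.2 on the CR arrays. All CR signals were above the control, with a mean log2 ratio of 0.91 ± 0.25 (adjusted p = 0.807). The mean ratios of *Abcg1* and *Abcg5* were 1.74 ± 0.24 (adjusted p = 0.0778) and 0.89 ± 0.32 (adjusted p = 0.974). Other *Abcg1* probe sets, below the signal limit, differed in sign, with means of −0.30 and 0.80. *Mylip*, *Abcg1* and *Abcg5* all had control signals under the limit of 46.5. They were measured through their higher CR signals, so their number is no support for a direction.

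*Aacs*, which makes acetoacetyl-CoA for lipid synthesis from ketone bodies, had 132.2 on the control array and 86.1, 74.5, 103.1 and 106.2 on the CR arrays. It was below the control throughout and lowest at 10% CR, with a mean log2 ratio of −0.53 ± 0.24 (adjusted p = 0.988). *Mlxipl*, which encodes the carbohydrate-sensing activator ChREBP of the fatty acid genes, had 241.6 and 164.9, 192.3, 190.2 and 136.8. It too was below the control at every level, with −0.51 ± 0.21 (adjusted p = 0.988). In this list 12 of 33 genes (36.4%) had their lowest signal at 10% CR, beside 16.7% of all genes. They included *Srebf2*, which encodes SREBP-2, with 202.2 on the control array and 184.8, 173.1, 211.2 and 210.3 on the CR arrays, *Acat2*, the thiolase at the start of the pathway, with 112.5 and 106.3, 79.9, 121.3 and 151.4, and *Tm7sf2*, a sterol reductase, with 194.5 and 174.4, 158.9, 225.4 and 187.3. These 3 were named after their values were seen.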

How the data were processed

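The deposited values are MAS5 intensities (linear scale) that the authors computed from Affymetrix rat arrays. The trimmed mean was 132 on each array, but no source used here states the target of the scaling. MAS5 subtracts mismatch signals, which makes weak signals noisy, and the scaling hides any change in total RNA. Values under 0.1 were set to 0.1 before log2. The 57 array controls were left out of tests. Of the other 15866 probe sets, 12783 carry 1 symbol, 312 several and 2771 none, in the array annotation; 7933 at or above the median mean log2 signal were kept. Comparisons used limma 3.58.1 in R 4.3.3 (two-sided moderated tests with eBayes and trend = TRUE, threshold 0.05 after Benjamini-Hochberg adjustment across kept probe sets), as CR pools against the control pool and as a slope over the restriction percent. The tests were checked on simulated data. The members and lists were chosen with earlier results of these data known. By rule, values on all arrays are given for members past 0.5 (log2) at any level, *Srebf1*, *Cyp51* and *Fads1*; others were added after their values were seen. The number of arrays limits the precision, and p-values rest on the spread between pools. Sequences are from RefSeq (GRCr8); 25 of the 31 genes matched.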

Additional observations from a re-analysis of the deposited data

How the results depend on the processing

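Quantile normalization, median centring, an added constant of 13 (the 25th percentile of the signals), no signal filter, a stricter filter (75th percentile) and, for the gene groups, averaging all kept probe sets of each gene were tried, and each pool was left out in turn. The fatty acid median of −0.21 lay between −0.24 and −0.18 under the first 6 and between −0.23 and −0.20 without single CR pools. The cholesterol median of −0.072 lay between −0.13 and −0.062, and between −0.11 without the 20% and −0.027 without the 10% CR pool. Their difference lay between 0.080 and 0.15, and between 0.095 and 0.17 without single pools. The count of genes below the control at all 4 levels fell to 7, and that above it to 1, with the stricter filter, which left 16 of the 28 genes. Leaving out a CR pool gave 11 to 13 and 2 to 7, the 7 without the 10% CR pool. At a size of 0.3 in place of 0.5, 2 genes (*Fasn* and *Fads2*) were past it at all levels. The number of cholesterol genes lowest at 10% CR was 7 to 11, and 9 to 10 without a pool. In limma, 3 of all probe sets were called against the control without the 30% CR pool, and 0 without any other CR pool and under the other settings, where 164 to 806 had an unadjusted p below 0.05. The trend called 0 throughout, also with ranks of the levels or without the control pool, where no comparison with the control can be fitted. Mean ratios of single genes were recomputed under the 2 normalizations, the added constant and without each CR pool, for the 28 genes and the 5 other pathway genes named for their size. Of these 33 genes 25 kept their sign wherever they were measured (*Hsd17b7* was below the filter without the 30% CR pool), and 8 reversed under at least 1 setting; the cause was not tested. Median centring turned *Fdft1* to −0.00016, and quantile normalization turned *Elovl5* to 0.0028 and *Acsl5* to −0.0030. Without single CR pools, means ranged from −0.10 (without 30%) to 0.14 for *Srebf1*, −0.030 (without 20%) to 0.048 for *Fdft1*, −0.083 to 0.063 (without 10%) for *Sc5d*, −0.017 (without 10%) to 0.073 for *Acaca*, −0.039 (without 20%) to 0.15 for *Scd*, −0.080 to 0.042 (without 20%) for *Elovl5*, −0.0037 (without 5%) to 0.13 for *Acsl3* and −0.11 (without 20%) to 0.094 for *Acsl5*. Leaving out the 20% CR pool gave *Insig1* a mean of 0.066 and *Me1* one of −0.24, against 0.29 and −0.040 when the 10% CR pool was left out. The lowest adjusted p of these 33 genes was 0.0515, for *Abcg1* without the 20% CR pool. The counts by sign or lowest array were added as alternatives after the data were seen. No paired analysis was possible because each pool had 1 diet and 1 array.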

Other observations

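Several genes that join fatty acids to glycerol or phospholipids, named after their values were seen, had their highest signal at 20% CR. *Dgat1*, which makes the last ester bond of triglyceride, had 1623.4 on the control array, then 1669.2, 1497.9, 2241.6 and 1379.9 with rising restriction. *Agpat2*, an acyltransferase of the same route, had 373.0 and 375.1, 351.8, 502.6 and 352.7, and *Lpcat3*, which puts polyunsaturated fatty acids into phospholipids, had 479.0 and 623.4, 476.1, 756.4 and 563.0. A second *Lpcat3* probe set, with 439.8 and 408.8, 351.1, 526.4 and 354.1, was also highest at 20% CR. *Lpin1*, a phosphatidate phosphatase of the glyceride route, was instead highest on the control array, with 78.1 and 55.1, 68.0, 55.9 and 65.7. The summed signal of the enterocyte markers was also highest at 20% CR. Of the 33 other pathway genes, 13 (39.4%) had their highest signal on that array, beside 20.8% of all genes. The part of the enterocyte difference was not tested.

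Probe sets below the signal limit were left out of all counts. *Mvd*, the mevalonate diphosphate decarboxylase, had 49.6 on the control array and 44.5, 43.1, 32.0 and 49.1 on the CR arrays. *Gpam*, which starts glycerolipid synthesis, had 16.0 and 8.9, 14.1, 8.4 and 15.4. A second *Srebf1* probe set had 37.3 and 45.0, 49.9, 66.9 and 34.9, highest at 20% CR and below its control at 30%, where the brighter one was highest.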
